A study of Mus musculus with 8 samples.

Results

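Members of the C/EBP family of transcription factors are the genes described here, namely Cebpa, Cebpb, Cebpd, Cebpg and Cebpe, with the open-chromatin regions that the ATAC-seq data list around them. A region was taken when it overlapped the body of 1 of these 5 genes or lay within 50 kb of it. This gave 14 of the 8281 regions in both lists, all 14 from the 8031 regions called in control liver without an overlapping Alb-D2KO region (reduced chromatin accessibility, RCA), and 0 from the 250 called in Alb-D2KO liver alone. ATAC-seq uses a transposase that inserts sequencing adapters into accessible DNA, so that pile-ups of fragments mark open chromatin. The libraries came from frozen liver of adult C57BL/6 mice (C57BL/6J in the methods), 4 control and 4 Alb-D2KO, with 50000 nuclei in each. Alb-D2KO mice carry floxed Dio2 alleles and a Cre recombinase driven by the albumin promoter, which inactivates Dio2, the gene of the type 2 deiodinase that converts thyroxine into T3, in hepatocytes. Titles of the control libraries carry the word cre. The paper describes the controls of its ChIP-seq and RNA-seq as mice with Cre, and does not state this for the ATAC-seq controls. In Alb-D2KO mice, liver cells other than hepatocytes keep their Dio2 alleles. Regions were called once per genotype over its libraries together, so no value below has a replicate error or a test, and the read depth is unknown. In nuclei of whole liver, fewer cells of a type and less open chromatin per cell cannot be told apart. Around Dio2 itself neither list held a region within 50 kb, and lists of regions cannot check the deletion or the tissue. The genes and the 50 kb limit were chosen by where the listed regions lie, so their counts are a description.

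C/EBP proteins bind DNA as dimers through a basic region and a leucine zipper, and family members pair with each other. C/EBPα maintains the differentiated, non-dividing state of hepatocytes and drives genes of glucose, urea and lipid metabolism. C/EBPβ and C/EBPδ rise in the liver during the acute-phase response, C/EBPγ lacks a classical activation domain and works through its partners, and C/EBPε serves the maturation of granulocytes.

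RCAs were dense around Cebpa and Cebpb and sparse or missing around the other members. Within 50 kb of the gene body, Cebpa had 8 RCAs, Cebpb 6, Cebpg 1, and Cebpd and Cebpe 0. The Cebpg region is also 1 of the 8 at Cebpa, since the bodies of these neighbouring genes are 62.7 kb apart on chromosome 7. In the same window, 44.3% of 21938 protein-coding genes had at least 1 RCA, against 3 of the 5 members. At least 6 RCAs were found at 2.45% of protein-coding genes and at least 8 at 0.729%. Longer genes have wider windows, and among 4141 genes of up to 5000 bp, which take in every member but Cebpg, the shares were 35.6%, 2.34% and 0.7%. With the distance taken from the start site instead, Cebpa had 7 and Cebpb 6, while 38.3% of protein-coding genes had at least 1 and 1.49% at least 6. For Alb-D2KO-only regions within 50 kb of the body the share of protein-coding genes was 2.17%, against 0 members.

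**Figure D1:**
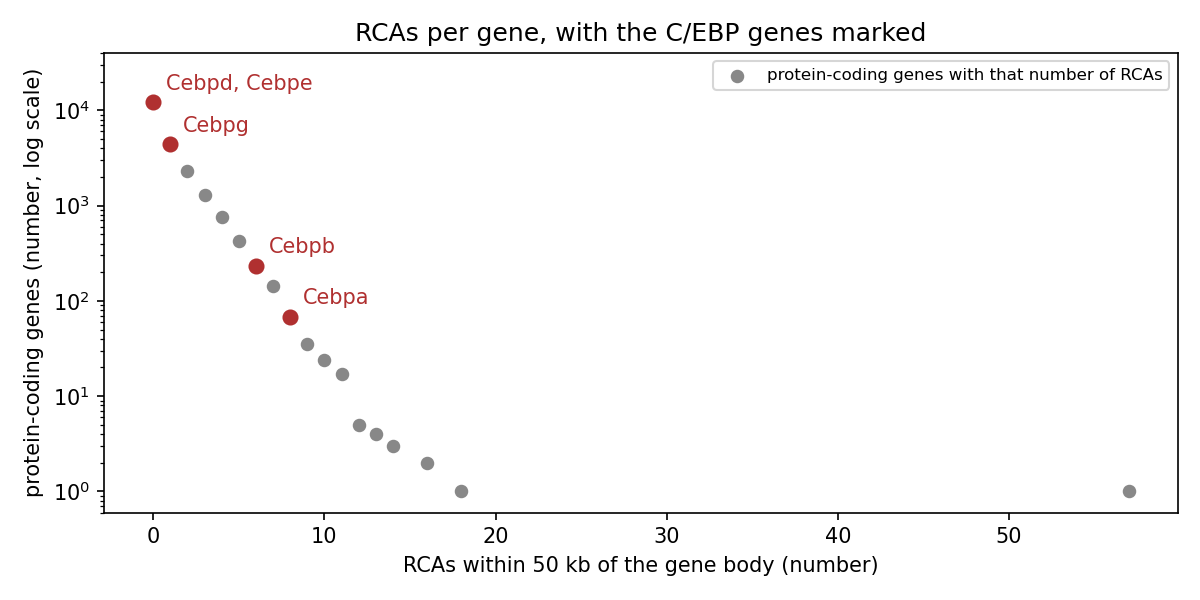
Each point gives the number of protein-coding genes (y axis, log scale) that have a given number of RCAs within 50 kb of the gene body (x axis), and red points hold the C/EBP genes. Cebpd and Cebpe sit at 0, Cebpg at 1, Cebpb at 6 and Cebpa at 8.

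The sequences below are stretches of 3 regions that hold a searched motif, namely the region with the largest area of the family, the one nearest to Cebpb and the outermost at Cebpa, and other regions with a motif are not shown. They are from the plus strand of the GRCm38 assembly, on which mm10 is based. In the first, from chr7:35122701-35123000, capitals mark a match to TTGCNNAA, a common form of the C/EBP consensus, here on the minus strand, in the strongest region at Cebpa, whose summit, the position of its highest significance, is at 35122911. In the second, chr2:167692036-167692215, just downstream of Cebpb, they mark copies of AGGTCA, the half-site of nuclear receptors. The third, chr7:35172000-35172119, is from the outermost region at Cebpa, where capitals mark overlapping copies of GGGCGG, an SP1 box.
Cebpa strongest region: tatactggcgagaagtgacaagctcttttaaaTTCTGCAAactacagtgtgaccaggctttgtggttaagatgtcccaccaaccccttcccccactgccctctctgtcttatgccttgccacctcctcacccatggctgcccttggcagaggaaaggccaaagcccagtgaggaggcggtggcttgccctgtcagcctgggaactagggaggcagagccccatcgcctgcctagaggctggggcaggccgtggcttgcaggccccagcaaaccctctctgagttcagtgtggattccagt
Cebpb nearest region: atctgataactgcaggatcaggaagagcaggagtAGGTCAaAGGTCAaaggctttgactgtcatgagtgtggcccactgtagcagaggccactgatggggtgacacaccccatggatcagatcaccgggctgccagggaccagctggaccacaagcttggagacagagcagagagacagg
Cebpa outermost region: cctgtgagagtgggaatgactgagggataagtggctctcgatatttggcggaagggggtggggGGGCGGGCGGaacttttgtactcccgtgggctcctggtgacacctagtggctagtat

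Cebpa lies on chromosome 7 from 35119293 to 35121928 on the plus strand, a body of 2636 bp. None of its 8 RCAs overlapped the body, 2 lay upstream and 6 downstream. The strongest, and the nearest, began 193 bp past the annotated end of the gene and ran from 35122122 to 35123871, in sequence with no annotated gene. Its area, the peak caller's measure of significance summed over a region, was 1737, rank 3 among the 8031 RCAs, and its width was 1750 bp. The area of an RCA comes from the control call alone. With no Alb-D2KO value beside it, neither the area nor the word strongest measures how much accessibility was lost. Its summit lay 3.62 kb downstream of the Cebpa start site, with a −log10 q of 3.75, a value that exceeded those of 93.8% of RCAs. This 1 region made up 44.9% of the summed area of the 8, and its area was 4.49 times that of the second strongest.

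Beyond it, 4 more RCAs followed toward the 3′ side. The first, of 311 bp, had an area of 355, and from 35128870 to 35129562 one of 693 bp had an area of 282. The next, from 35130100 to 35130663, had an area of 387, the second highest at Cebpa, and the last, from 35134697 to 35134961, had 276. All 4 were intergenic, with summits 8.60, 10.2, 11.2 and 15.6 kb downstream of the start site. They differed more in shape than in area, since the area per base ran from 0.408 in the widest to 1.14 in the one nearest to the gene.

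Upstream, an intergenic region from 35116528 to 35117051 ended 2.24 kb before the gene, with an area of 298 and a width of 524 bp. The other upstream region, from 35090561 to 35090846, lay in an exon of the long noncoding RNA gene Gm35611, with an area of 222. It was 28.4 kb from Cebpa and 34.0 kb from Cebpg. The outermost RCA, from 35171917 to 35172378 with an area of 308, was 49988 bp past the gene and so only just inside the limit. The nearest regions outside the limit were 58985 bp from Cebpe with an area of 387, 59954 bp from Cebpg and 69580 bp from Cebpb. That of Cebpg is the region 2.24 kb upstream of Cebpa.

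**Figure D2:**
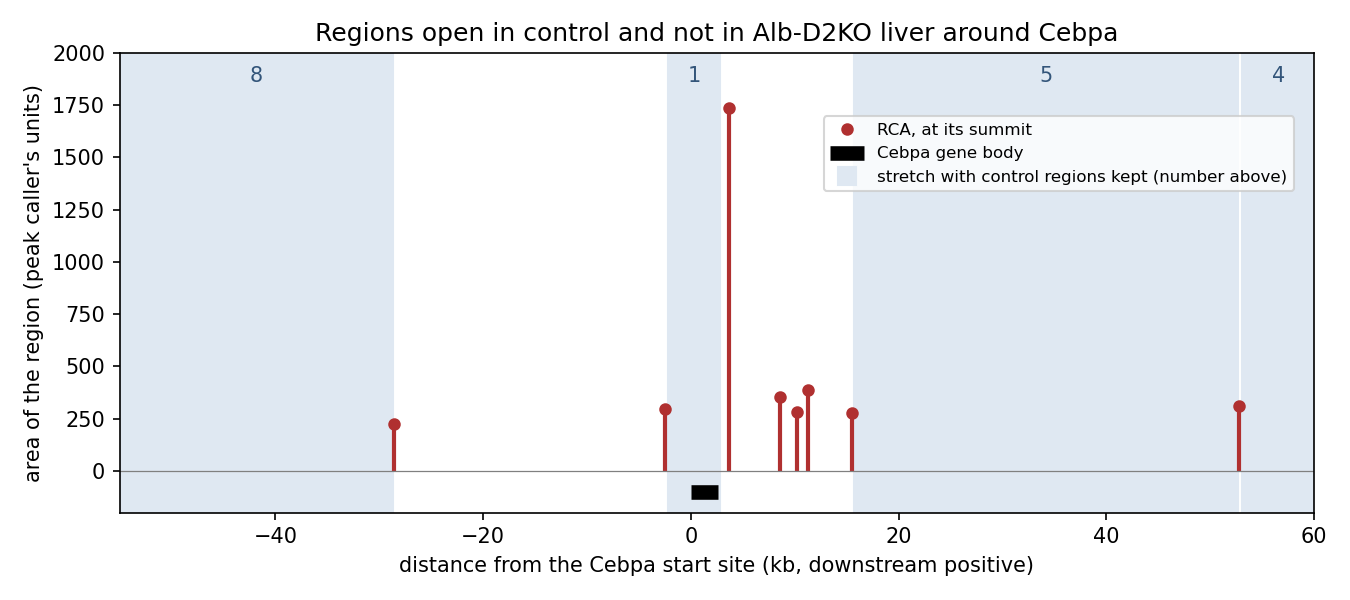
RCAs around Cebpa, each drawn at its summit by distance from the Cebpa start site (x axis, kb) with its area (y axis, peak caller's units). The black bar is the gene body, and shaded stretches hold control regions kept in Alb-D2KO liver, with their number above. A stretch that runs past the plot is cut at its edge but keeps its full number. The 8 at the left edge belong to 683 kb and the 4 at the right edge to 178 kb, so they may lie outside the plot. The highest RCA, with an area of 1737, stands 3.62 kb downstream of the start, between a stretch with 1 kept region over the gene and a row of 4 further RCAs with none kept among them.

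The peak caller numbered all open regions of control liver along the genome, and the subtraction left gaps in this series. A missing number was read as a control region that overlapped an Alb-D2KO region and so was kept, although its exact position and signal are not in the lists. The highest number among the RCAs was 22367, and by these numbers 35.9% of control regions were RCAs. At Cebpa the 5 RCAs from the strongest one downstream had consecutive numbers, so over 12.8 kb no control region was kept. Exactly 1 number was missing between the region upstream of the gene and the strongest one. That kept region lay somewhere in the 5.07 kb from 35117052 to 35122121, which contains the whole gene and its start site. No control region of either kind was called in the 25.7 kb between the 2 upstream RCAs. Between the fifth downstream RCA and the outermost one, 5 control regions were kept. From the first to the last of its RCAs, Cebpa thus had 14 control regions, of which 8 (57.1%) were RCAs and 6 were kept. Such a stretch starts and ends on an RCA by definition, which raises its share, so it cannot be set beside the 35.9%. Out to the next RCA on either side, over 943 kb, 18 control regions were kept beside the 8 RCAs.

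Runs of this length were a minority. The RCAs formed 4669 runs of consecutive control regions, 2861 of them of a single region, and 172 had at least 5 members. Those 172 held 13.8% of the RCAs, and the longest had 17.

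Cebpb lies on chromosome 2 from 167688915 to 167690418 on the plus strand, a body of 1504 bp in 1 exon. Its 6 RCAs, 3 on either side, had areas between 211 and 402 with a median of 278, and none overlapped the gene. Downstream, regions from 167691956 to 167692418 (area 212), from 167694173 to 167694708 (area 211) and from 167698001 to 167698321 (area 402) all lay in introns of A530013C23Rik, a long noncoding RNA gene. The nearest began 1.54 kb past Cebpb, and the third had the highest area of the 6. The lowest area of any RCA was 200, and the areas of 212 and 211 exceeded only 10.3% and 9.28% of RCAs. On the other side, a region from 167685226 to 167685583 with an area of 343 lay in an intron of Tmem189, 3.33 kb from Cebpb. An intron of both Tmem189 and the readthrough gene Gm20431 held the next, from 167659700 to 167660162, with an area of 218, above that of 15.1% of RCAs. The farthest, from 167641250 to 167641611 and in an intron of Gm20431 alone, had an area of 337 and, at 3.94, the highest −log10 q of the family.

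By the numbering, Cebpb resembled Cebpa in the stretch over the gene. Exactly 1 control region was kept in the 6.37 kb from 167685584 to 167691955, which contains the gene, and 1 more between the 2 nearest upstream RCAs. The 3 downstream RCAs and the following 2, which lie past the 50 kb limit, had consecutive numbers, a run of 5 over 70.2 kb. It was looser than the run of 5 at Cebpa, which spanned 12.8 kb, since 61.7 kb lay between the 3 and the 2. From its first to its last RCA, Cebpb had 8 control regions, 6 of them RCAs (75%) and 2 kept. This share too is raised by ends set on RCAs. Out to the next RCA on either side, over 154 kb, 4 control regions were kept beside the 6 RCAs.

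**Figure D3:**
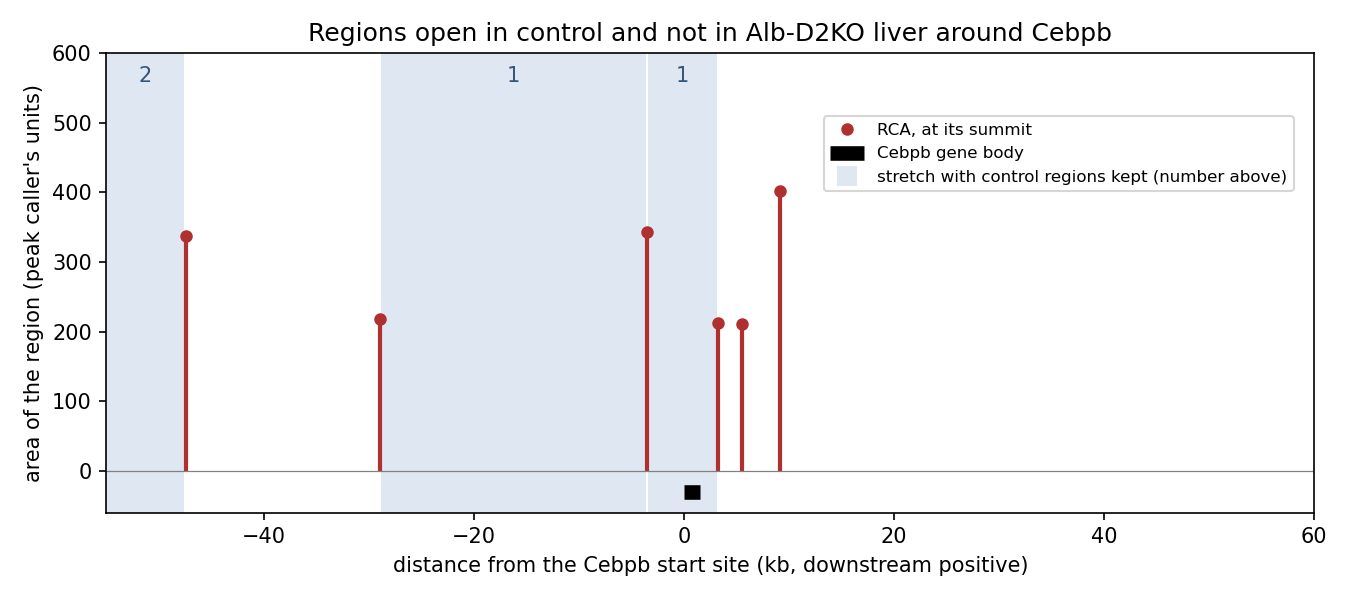
RCAs around Cebpb, drawn as for Cebpa, with distance from the Cebpb start site on the x axis (kb) and area on the y axis (peak caller's units). Shaded stretches hold kept control regions, with their number above. The 2 at the left edge belong to a stretch of 35.6 kb that is cut there, so they may lie outside the plot. The 6 RCAs have areas from 211 to 402, and the stretch over the gene body has 1 kept region.

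At Cebpg, Cebpd and Cebpe, RCAs were few or none. Cebpg spans positions 35046422 to 35056573 of chromosome 7, on the minus strand. Its 1 RCA lay beyond the 5′ end, and 8 control regions lay in the 683 kb between it and the previous RCA, which contain Cebpg. A stretch between neighbouring RCAs holds only kept regions by definition, so such numbers here count control regions and give no share kept. Cebpd, on chromosome 16 from 15887286 to 15891031, had its nearest RCA 322 kb away, with an area of 245. A distance at least this long was found at 24.7% of protein-coding genes. The surrounding 1511 kb without an RCA held 6 control regions. At Cebpe, minus strand of chromosome 14 between 54710360 and 54712174, the nearest RCA was 59.0 kb away, and 52.9% of protein-coding genes were at least as far from one. There, 8 control regions lay in the 243 kb without an RCA. Its nearest Alb-D2KO-only region was 132 kb away, with an area of 326, while for the other members such regions were at least 1988 kb away.

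Compared with all RCAs, the 14 regions were wider, with a lower area per base. Their median width was 462.5 bp against 326 bp over all RCAs, and 10 of the 14 were wider than the latter value. The median area was 303 against 278, and 7 of 14 regions had an area of at least 300, a level that 40.8% of all RCAs reached. The area per base had a median of 0.732 against 0.909, and the −log10 q of the summit a median of 2.99 against 3.14. These values come from 1 pooled call, and no test was made.

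**Figure D4:**
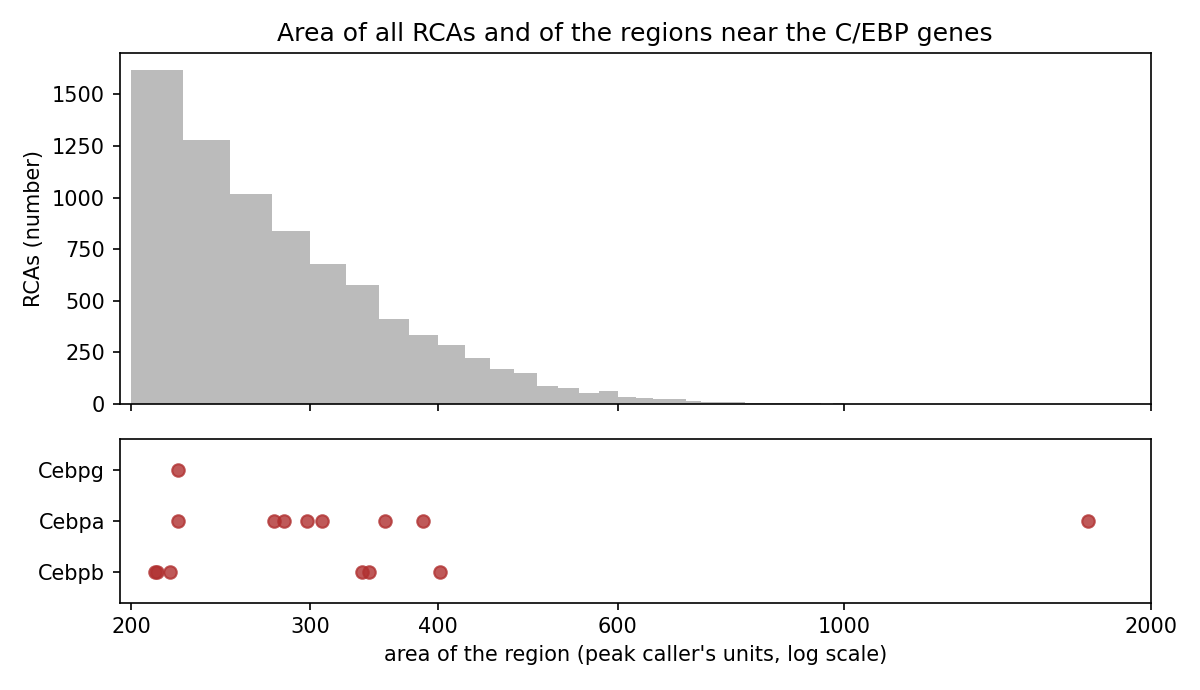
The upper panel counts all RCAs by area (x axis, peak caller's units, log scale; bins of 25, with 12 RCAs of 1000 or more not drawn), and the lower panel marks the RCAs within 50 kb of each member, with 1 region shared by Cebpa and Cebpg. All but 1 of the member regions have areas from 211 to 402, and the strongest Cebpa region stands apart at 1737.

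No RCA near the family was a promoter region, defined as lying within 200 bp of any annotated start site. Of the 14, 7 were intergenic, 6 intronic and 1 exonic, whereas 19.4% of all RCAs were at promoters, 40.0% in introns and 30.4% between genes. The split followed the loci, with 7 of the 8 Cebpa regions intergenic and all 6 at Cebpb intronic. At their own start site, within 200 bp, 3.75% of protein-coding genes had an RCA, and 15.7% had one overlapping the body, against 0 members for each. The body share is over genes of all lengths, whereas every member but Cebpg is shorter than 5000 bp, and a short body has less room for an RCA. The class depends on the annotation. With only protein-coding genes counted, 11 regions were intergenic and 3 intronic, because the introns of A530013C23Rik and the exon of Gm35611 belong to noncoding genes.

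The sequences were searched on both strands for 6 motifs. TTGCNNAA occurred in 2 of the 14 regions, against 20.9% of all RCAs searched, both downstream of Cebpa. Its match in the strongest region, shown above, lay at −174 bp from the summit, minus meaning toward lower coordinates, and 54% of windows of that width, 1750 bp, around the summits of all RCAs held the motif. The palindrome TTGCGCAA was in none of the 14, and in 0.199% of the 8021 RCAs on assembled chromosomes. AGGTCA was in 5 regions, 3 of them at Cebpb, against 34.5% of those RCAs. In the region 1.54 kb downstream of Cebpb, copies of AGGTCA stood in tandem with 1 base between them at −73 and −66 bp from the summit. This spacing was looked up after the copies were seen, and 0.175% of RCAs (14 of 8021) had such a pair. The thyroid hormone response element, here AGGTCA repeated after 4 bases, was in none of the 14 and in 0.0249% of RCAs. SP1 boxes were in 3 regions, 1 at Cebpb and 2 at Cebpa, against 20.9% of RCAs. The cyclic AMP response element TGACGTCA was in none, against 0.748%. GC content had a median of 55.8% in the 14 regions and 51.9% in all RCAs, with 1.45 and 1.72 CpG dinucleotides per 100 bp. A match to letters is not a bound site, and the absence of one says only that these letters were not there.

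Genes closest to Cebpa in rank of summed RCA area within 50 kb were Klf15, Nectin2, Ppara and Lsm4, at ranks 39, 41, 42 and 43. Arl4d, at rank 44, was as far from Cebpa in rank as Atp5d, Cbarp and Stk11, which share rank 36 with equal sums of 3946. The rank of Cebpa was 40 among 21938 protein-coding genes, with a sum of 3865, and 0.182% of genes had at least as much. Of this sum, 44.9% came from the strongest region alone. Klf15, a transcription factor of amino acid breakdown and glucose production, had 10 RCAs summing to 3884, and Ppara, the nuclear receptor of fatty acid oxidation, had 11 summing to 3843. The likeness is of this 1 sum in 1 pooled call, and Nectin2 and Ppara, with bodies of 33.8 and 67.8 kb, had wider windows. For Cebpb the sum was 1723, which 3% of genes reached, at rank 659.

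Partners, regulators and targets of the C/EBP proteins were looked up in the same window of 50 kb. Among 10 dimer partners and related leucine zipper genes, 6 had an RCA, beside the 44.3% of all protein-coding genes. Hlf and Dbp, circadian PAR-domain factors, had 7 and 6 RCAs, and the strongest at Dbp had an area of 1036. Nfil3, a repressor that opposes them at shared sites, had 2, and Ddit3 (CHOP), which dimerizes with C/EBPβ, Atf4, a stress-response activator, and Tef had 1 each. Atf5, Batf, Fos and Jun had none. Of the regulators, Trib1, a pseudokinase that directs C/EBPα to degradation, had 4 RCAs with areas of up to 632, while Trib2 and the ubiquitin ligase gene Cop1 had none.

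Liver genes known as C/EBP targets had RCAs nearby in 16 of 18 cases, and 8 of the 18 had one within 200 bp of their start site. Among all protein-coding genes these shares were 44.3% and 3.75%. With an area of at least 300 asked of the RCAs within 50 kb, 13 of the 18 had one, beside 25.5% of all protein-coding genes. The list was made of genes highly active in hepatocytes, and other such genes were not compared. Alb, encoding albumin, had 4 RCAs with areas of up to 596, and Pck1, of gluconeogenesis, had 5. The region at the start of G6pc, encoding glucose-6-phosphatase, had an area of 577, and that at Hp, encoding the acute-phase protein haptoglobin, 467. Apoa1, of high-density lipoprotein, had 14 RCAs, in a window that also holds other apolipoprotein genes. Otc, of the urea cycle, and Fgl1 had none. In the paper's counts, chromosome X, which carries Otc, had a lower density of RCAs than any autosome. Alb-D2KO-only regions were near none of the genes in the 3 lists, and near only 2.17% of all protein-coding genes.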

How the data were processed

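The data were ATAC-seq of liver from 4 control and 4 Alb-D2KO mice. Per the methods, the authors removed adapters with NGmerge, aligned reads to mm10 with BWA (version 0.7.17), and kept primary, unduplicated and non-chimeric alignments with a mapping quality of at least 30. They called open regions with Genrich (version 0.6, q threshold 0.05) on grouped libraries, leaving out a blacklist built from calls on single libraries, and subtracted regions that overlapped one of the other genotype. The deposited signal of a region is the area given by the caller, the deposited score is that area per base times 1000 up to a ceiling, and the deposited −log10 q is that of the summit. The authors' score was only checked against the area, and their −log10 p was not used. Depth is unknown, since the lists hold no counts.

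Positions were made 1-based, and distances are the bases between a region and a gene body in GENCODE M21, an mm10 annotation other than the release named in the methods. A region took the first class it met of promoter (200 bp around any start site), exon, intron and intergenic. Sequence came from GRCm38.p6. Analyses ran in Python 3.11.15 with pandas 2.3.3, and the counting was tested on simulated data. The members, the lists of partners, regulators and targets and the motifs were chosen with earlier results of these data known. The genes named are the members, the genes their regions meet, the 5 protein-coding genes nearest to Cebpa in rank of summed area, where genes with equal sums share the best rank and the 3 others tied for the fifth place are named too, and those lists. Where a symbol named 2 genes (Ddit3), the longer was used. No test was made. One sequence is not reported here.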

Additional observations from a re-analysis of the deposited data

How the results depend on the processing

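Counts around the family depended on the minimum strength asked of a region. With a summit q of at most 0.001, 7 regions remained in all, 4 at Cebpa and 3 at the other members. An area of at least 300 gave the same counts of 7, 4 and 3, but partly of other regions at Cebpa. The second strongest there, with an area of 387, had a −log10 q of 2.76 and missed the q limit. Of all RCAs, 40.8% reached that area, and most met the q limit, since their median −log10 q was 3.14. The area limit also lowered the share of protein-coding genes with an RCA from 44.3% to 25.5%, and the dimer partners with one from 6 to 2. The RCAs near members other than Cebpa went from 7 to 4 within 20 kb and to 18 within 100 kb, while the 14 regions in all became 10 and 19. At 100 kb the RCAs of Cebpg rose from 1 to 7, all of them also near Cebpa. With distance taken from the start site, 13 regions were found, since the outermost at Cebpa fell outside. With protein-coding genes only, 11 regions were intergenic in place of 7. A promoter window of 3000 bp made promoter regions of 6 that had been intronic or intergenic. Within 100 bp of the summit, TTGCNNAA was found in 1 region in place of 2. A minimum width of 200 bp and merging of regions within 100 bp could not change the counts around the members. The narrowest of the 14 regions was 265 bp wide, and the closest neighbours among them were 537 bp apart. Of 84 comparisons with an alternative, 59 stayed within 1.5 times the reported value and 25 moved further. Part of the 59 could not have moved, so the tally is no measure of robustness. Besides the width and merging settings, these include the counts of 0 at Cebpd and Cebpe under a narrower window or a stricter limit. The alternative of genes up to 5000 bp was chosen after seeing the data. No replicate could be left out, and no paired analysis was possible because each list is 1 pooled call.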
